A study of Mus musculus with 4 samples.

Results

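The genes of cyclic nucleotide signalling were followed in mouse airway smooth muscle: the cyclases that make cyclic AMP (cAMP) and cyclic GMP (cGMP), the natriuretic peptide receptors, protein kinases A and G, and the phosphodiesterases. Members were taken by gene symbol: Adcy, Gucy, Prkg, Prkar and Prkac genes, Npr1 to Npr3, and every Pde followed by a digit, leaving out Adcyap genes, pseudogenes and opposite-strand genes. This gave 56 genes, each with 1 probe set, of 23185 named probe sets on the array. The rule reads symbols only.

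The cells came from lungs of adult mice carrying both transgenes of the genotype Acta2-hrGFP;Cspg4-DsRED, in which the promoter of smooth muscle actin drives a green reporter and that of Cspg4 a red one. Cells that were hrGFP+DsRED- were sorted and called airway smooth muscle. VAD mice ate a diet with under 0.1 IU of vitamin A per gram, for 3 days in 1 passage of the labels and 5 days in another, and VAS mice a normal diet with 15 IU per gram. BMS mice ate a powdered, vitamin A-sufficient diet for 3 days with a pan retinoic acid receptor antagonist, named BMS, at 5 mcg per gram, and CTR mice the same powdered diet with corn oil alone. RNA of 3 mice was pooled per group and run on 1 array, so the series holds 4 arrays and no group has a replicate. The comparisons asked what too little retinoic acid, or its blocked receptors, does to gene expression in this muscle. Every difference below is between 1 array and another, and no spread between mice is known. CTR against VAS sets the 2 controls side by side. They differ in diet form, vehicle and pool of mice, which cannot be told apart.

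In airway muscle, cAMP made by adenylyl cyclases downstream of Gs-coupled receptors activates protein kinase A, and cGMP made by the nitric oxide-sensitive or the natriuretic peptide-sensitive guanylyl cyclases activates protein kinase G. Both kinases lower calcium and favour relaxation, which is why drugs that raise cAMP open the airways. Phosphodiesterases end the signal by hydrolysing cAMP, cGMP or both, and each family differs in substrate and regulation.

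Values are RMA levels on the log2 scale, and a difference of 1 is 2-fold. The median of all named values was 6.05 and the 75th percentile 7.67. Of the 56 members, 38 had a mean level over the 4 arrays at or above that median, 24 of them at or above the 75th percentile, and 18 lay below the median. Probe sets differ in their response to RNA, so a gene's level is compared between arrays only, not with that of another gene. The 15 contractile markers fixed for smooth muscle had mean levels of 10.78 in VAD, 10.61 in VAS, 10.43 in BMS and 10.57 in CTR. Markers of other cells were present too. The 10 fibroblast markers had mean levels of 9.82 in VAD, 9.83 in VAS, 10.09 in BMS and 9.21 in CTR, and the 9 pericyte and vascular muscle markers 8.77, 8.75, 8.96 and 9.17 in the same order. In sorted pools, fewer cells of a type and less RNA per cell cannot be told apart.

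Few members differed by 1.5-fold. In VAD against VAS these were 2 of 56 (3.57%), Npr3 higher and Npr1 lower, where 3.43% of all named genes were that far apart. In BMS against CTR they were again 2 of 56 (3.57%), Pde8a higher and Pde10a lower, where the share of all genes was 3.92%. Between the controls, CTR against VAS, there were 5 of 56 (8.93%), against 6.49% of all genes: Npr3, Pde10a, Pde8b and Adcy2 higher (4, against 2.16%) and Pde9a lower (1, against 4.33%). The shares in both labelled comparisons were near those of all genes, so the counts say nothing particular about the members. At 1.3-fold there were 5, 7 and 18 of 56 members in the same 3 comparisons, beside 11.1%, 11.7% and 18.5% of all genes. The 18 between the controls, 13 higher and 5 lower, are a larger share of the 56 than the 18.5% of all genes. This gap was not tested. At 2-fold there were 1, 1 and 2 of 56, beside 0.617%, 0.953% and 1.48%. Among the 38 members at or above the median level, 2, 2 and 4 were 1.5-fold apart. These are 5.26%, 5.26% and 10.5%, beside 3.09%, 4.44% and 7.89% of genes at such levels. Among the 24 at or above the 75th percentile there were 1, 0 and 3 (4.17%, 0% and 12.5%), beside 2.34%, 3.58% and 6.54%. With the controls exchanged, 4 of 56 members (Pde10a, Pde8b, Pde9a and Adcy3) were 1.5-fold apart in VAD against CTR, beside 4.59% of all genes. In BMS against VAS there were 3 of 56 (Npr3, Pde8b and Pde4c), beside 6.6%. The median over the 56 was -0.04 in VAD against VAS, -0.05 in BMS against CTR and 0.12 in CTR against VAS, beside -0.01, -0.004 and 0.00 over all named genes. The 4 values spanned less than 0.3 for 22 of 56 members, beside 47.2% of all genes, and at least 1 for 3 of 56, beside 3.52%.

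**Figure D1:**
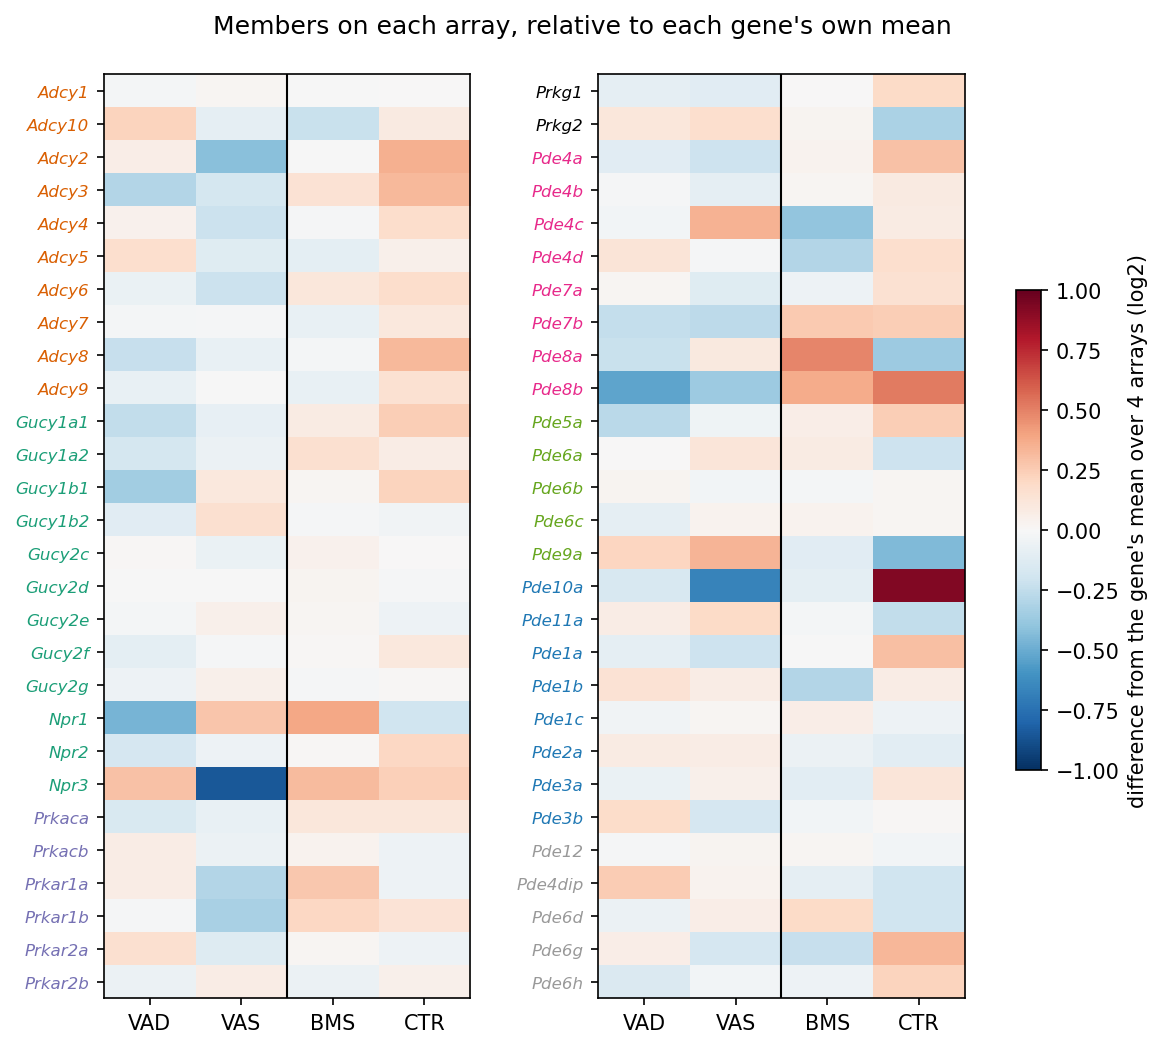
Each row is 1 of the 56 members and each column 1 array (VAD, VAS, BMS, CTR). Colour gives the difference in log2 units from that gene's own mean over the 4 arrays, from -1 (blue) to 1 (red), and the colour of a name gives its class. Npr3 is low in VAS alone and Pde10a high in CTR and low in VAS, while 22 rows span less than 0.3, as do 47.2% of all genes.

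The 4 members that differed by 1.5-fold in a labelled comparison are introduced with the stretch before a start site, since the 2 interventions act on receptors that bind DNA and cAMP acts through CREB. The 250 bases are from RefSeq (GRCm38.p6), 5′ to 3′ on the gene's strand. Capitals mark the letters AGGTCA, the hexamer that retinoid receptors bind in repeats, and TGACG, part of the CREB site TGACGTCA, each searched on both strands.
Npr3, chr15:11907372-11907621, minus strand: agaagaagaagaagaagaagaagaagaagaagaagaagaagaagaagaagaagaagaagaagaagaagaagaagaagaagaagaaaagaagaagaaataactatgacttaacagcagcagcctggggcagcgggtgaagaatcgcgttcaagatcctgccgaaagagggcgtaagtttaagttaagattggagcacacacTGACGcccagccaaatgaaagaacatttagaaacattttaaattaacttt
Npr1, chr3:90465867-90466116, minus strand: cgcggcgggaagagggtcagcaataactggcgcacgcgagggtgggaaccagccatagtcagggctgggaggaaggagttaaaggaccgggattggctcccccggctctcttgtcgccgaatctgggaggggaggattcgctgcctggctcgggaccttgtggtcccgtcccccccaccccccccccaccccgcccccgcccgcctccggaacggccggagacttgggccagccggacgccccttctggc
Pde10a, chr17:8801495-8801744, plus strand: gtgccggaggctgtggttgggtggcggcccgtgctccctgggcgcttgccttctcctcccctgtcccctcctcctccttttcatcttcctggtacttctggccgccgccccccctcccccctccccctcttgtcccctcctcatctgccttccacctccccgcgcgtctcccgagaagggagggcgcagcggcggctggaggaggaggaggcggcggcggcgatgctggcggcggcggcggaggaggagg
Pde8a, chr7:81213015-81213264, plus strand: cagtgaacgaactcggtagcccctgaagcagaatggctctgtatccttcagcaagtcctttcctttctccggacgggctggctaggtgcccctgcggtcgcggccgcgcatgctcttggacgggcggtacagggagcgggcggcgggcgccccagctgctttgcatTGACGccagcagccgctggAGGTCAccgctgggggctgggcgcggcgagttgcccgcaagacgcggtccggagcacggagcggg
Npr3 held 1 TGACG. Pde8a held 1 TGACG and 1 AGGTCA, and no other match was found in these 4 stretches. Pde10a has 2 windows in the table, of which 1 is shown. In RefSeq windows from 250 bases before to 50 after a start, AGGTCA was in 10 of 86 windows of 45 members (11.6%) and in 16.3% of all 32851 windows. TGACG was in 20 of the 86 (23.3%) and in 20.8% of all. The complete TGACGTCA, which contains TGACG on both strands, was in 2 of the 86, a pair of overlapping windows of Prkar1a alone, and in 1.79% of all, and 0 of the 86 held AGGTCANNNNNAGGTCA or AGGTCANNAGGTCA, repeats with spacings known for retinoic acid receptors, each found in 3 of all windows. A match to these letters is a description and shows no binding.

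Natriuretic peptide receptors held both differences of the diet comparison. Npr3, the clearance receptor that removes natriuretic peptides and has no cyclase of its own, had 8.58 in VAD, against 7.44 in VAS, and 8.60 in BMS, against 8.53 in CTR. VAS alone was low, while VAD, BMS and CTR spanned 0.07. VAD was 2.21-fold above VAS, a difference of 1.14 that 0.138% of all genes matched or exceeded upward, and 0.05 above CTR. In the stretch shown above, its TGACG begins 50 bases before the start.

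Npr1, the receptor cyclase for atrial natriuretic peptide and a gene of endothelium as well as muscle, went opposite ways in the 2 experiments. It had 5.87 in VAD, against 6.61 in VAS, and 6.72 in BMS, against 6.14 in CTR. The differences were -0.74 and 0.58, the second just under 1.5-fold, and 1.05% and 2.19% of all genes were at least as far in those directions. With the controls exchanged they were -0.27 for VAD against CTR and 0.11 for BMS against VAS, both inside 1.5-fold. Among the 10 endothelial markers, Tek, an endothelial receptor kinase, had 6.86 in VAD, against 7.45 in VAS, and 8.14 in BMS, against 6.72 in CTR. Cldn5, an endothelial junction protein, did not share that pattern, with differences of 0.95 in VAD against VAS and 0.49 in BMS against CTR. Over the 10 endothelial markers the median was 0.07 in VAD against VAS and 0.28 in BMS against CTR, with 7 and 8 of 10 above 0, against 48.3% and 48.9% of all genes. Their part in the result was not tested. Npr2, the receptor cyclase for C-type natriuretic peptide, had 9.67 in VAD, against 9.78 in VAS, and 9.85 in BMS, against 10.05 in CTR.

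Soluble guanylyl cyclase, the nitric oxide receptor, is a dimer of an alpha and a beta subunit. Its main subunits were slightly lower in VAD than in VAS and in BMS than in CTR. Gucy1b1 had 9.10 in VAD, against 9.56 in VAS, and 9.47 in BMS, against 9.68 in CTR. Gucy1a1 had 10.57 in VAD, against 10.73 in VAS, and 10.90 in BMS, against 11.07 in CTR. For Gucy1b1 VAD was the lowest array and stood 0.57 below CTR as well, while BMS was 0.09 below VAS. For Gucy1a1 BMS was 0.16 above VAS, so its lower value in BMS holds against CTR and not against VAS. At least as low as Gucy1b1 were 4.01% of all genes in VAD against VAS and 17.7% in BMS against CTR. For Gucy1a1 these shares were 23.2% and 21.5%. All 15 contractile markers were below 0 in BMS against CTR too. Relative to the contractile median, Gucy1b1 differed by -0.61 in VAD against VAS and -0.04 in BMS against CTR, and Gucy1a1 by -0.32 and -0.008. Gucy1a2, the other alpha subunit, differed by -0.12 in VAD against VAS and 0.09 in BMS against CTR, and Gucy1b2 by -0.28 and 0.02. All 4 subunits were below 0 in VAD against VAS, where 51.4% of all genes were, and 2 of 4 in BMS against CTR, where 50.8% were. The receptor cyclases of other tissues, Gucy2c of gut, Gucy2d of olfactory neurons, Gucy2e and Gucy2f of photoreceptors, and Gucy2g, lay below the array median and differed by 0.10 at most in either experiment.

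No protein kinase G gene or cGMP phosphodiesterase differed by 1.3-fold between a treated array and its own control. The larger differences were in BMS against CTR, for Prkg2 (0.34), Pde9a (0.33) and Pde6a (0.29). Prkg1, the kinase that mediates relaxation by cGMP, had 7.64 in VAD, against 7.61 in VAS, and 7.73 in BMS, against 7.92 in CTR. Pde5a, the cGMP phosphodiesterase inhibited by sildenafil, had 10.54 in VAD, against 10.77 in VAS, and 10.88 in BMS, against 11.06 in CTR. Like Gucy1a1, Pde5a was lowest in VAD and highest in CTR, and BMS was 0.11 above VAS. Relative to the contractile median, Pde5a differed by -0.39 in VAD against VAS and -0.02 in BMS against CTR. Prkg2, the membrane-bound kinase of gut and bone, had 5.54 in VAD, against 5.60 in VAS, and 5.46 in BMS, against 5.12 in CTR, all below the median of all values.

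Pde9a, which hydrolyses cGMP with high affinity, differed between the experiments more than within them. It had 8.34 in VAD, against 8.46 in VAS, and 8.01 in BMS, against 7.68 in CTR. The difference of CTR from VAS was -0.78, and both arrays of the antagonist experiment were below both of the diet experiment. Pde6a, Pde6b and Pde6c, the catalytic subunits of photoreceptors, lay between 3.08 and 4.29 on all arrays. Pde6b had 4.29 in VAD, against 4.24 in VAS, and 4.24 in BMS, against 4.28 in CTR.

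Among adenylyl cyclases no member differed by 1.5-fold in a labelled comparison. All 10 were below 0 in BMS against CTR, from -0.36 to -0.01 with a median of -0.18, where 50.8% of all genes were below 0. Cell markers moved beside them in the same comparison: all 15 contractile markers were below 0 with a median of -0.16, 8 of 9 pericyte and vascular muscle markers were below 0 with a median of -0.25, and all 10 fibroblast markers were above 0 with a median of 0.79. Set against the contractile median, 7 of the 10 cyclases were lower, as were 22.4% of all genes, but the 2 medians (-0.18 and -0.16) were close. Adcy3 (-0.18), Adcy4 (-0.19) and Adcy7 (-0.18) lay just below it, and contractile markers lie on both sides of their own median by definition. The part of these cells in the result was not tested. Against VAS in place of CTR, 6 of the 10 were above 0, with a median of 0.03, beside 50.0% of all genes. In CTR against VAS 9 of 10 were above 0, with a median of 0.29, where 49.9% of all genes were, and this comparison shares CTR with the first. CTR was the highest array for 7 of the 10, and for 27.0% of all genes. In VAD against VAS 5 were above 0 (48.3% of all genes) and 5 below, with a median of 0.07.

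Adcy2, a cyclase stimulated by G protein beta-gamma subunits, had 9.26 in VAD, against 8.78 in VAS, and 9.19 in BMS, against 9.55 in CTR. It was 1.71-fold higher in CTR than in VAS, and VAD and BMS lay between them. Adcy3 had 9.19 in VAD, against 9.30 in VAS, and 9.62 in BMS, against 9.81 in CTR. Adcy3 was thus higher on both arrays of the antagonist experiment than on both of the diet experiment. Adcy5, one of the pair of calcium-inhibited cyclases, had 9.16 in VAD, against 8.87 in VAS, and 8.89 in BMS, against 9.04 in CTR. Adcy6, the other, differed by 0.15 and -0.06 in VAD against VAS and BMS against CTR. Adcy8, a calmodulin-stimulated cyclase, lay below the median with 4.89 in VAD, against 5.05 in VAS, and 5.10 in BMS, against 5.44 in CTR. Adcy4, Adcy7 and Adcy9 differed by at most 0.26 in either labelled comparison, and Adcy1, a neuronal cyclase, by at most 0.04.

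Protein kinase A is built of regulatory and catalytic subunits. Of its 6 subunit genes none differed by 1.5-fold in any comparison, and the medians were 0.21 in VAD against VAS and 0.07 in BMS against CTR. Prkar1a, a regulatory subunit that holds the catalytic ones inactive until cAMP binds, was higher in both experiments. It had 8.92 in VAD, against 8.56 in VAS, and 9.12 in BMS, against 8.80 in CTR. The differences were 0.36 and 0.32, and VAD was 0.12 above CTR and BMS 0.56 above VAS. Prkar2a, another regulatory subunit, had 6.70 in VAD, against 6.42 in VAS, and 6.57 in BMS, against 6.49 in CTR. Prkar1b was lowest in VAS, with differences of 0.31 and 0.07, and Prkar2b was slightly lower in both, by -0.13 and -0.10. The catalytic subunits were nearly level: Prkaca had 8.49 in VAD, against 8.56 in VAS, and 8.75 in BMS, against 8.75 in CTR, and Prkacb had 8.31 in VAD, against 8.17 in VAS, and 8.26 in BMS, against 8.18 in CTR.

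Phosphodiesterases that hydrolyse cAMP held the largest difference upward among members in BMS against CTR. Against VAS the largest in BMS was that of Npr3 (1.16). Pde8a, a high-affinity cAMP phosphodiesterase, had 7.98 in BMS, against 7.12 in CTR, and 7.26 in VAD, against 7.59 in VAS. BMS was the highest array, 1.81-fold above CTR and 0.39 above VAS on the log2 scale, and 0.914% of all genes were at least as much higher against CTR. Fibroblast markers stood beside it, with a median of 0.79 in BMS against CTR, all 10 above 0 and 5 at least 1.5-fold higher. In VAD against VAS the median of the 10 was -0.07, and in CTR against VAS, where Pde8a differed by -0.47, it was -0.38. Their part in the result was not tested.

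Pde8b, its paralogue, likewise differed by experiment more than by treatment, with 5.49 in VAD, against 5.66 in VAS, and 6.39 in BMS, against 6.54 in CTR. Pde7b did so too, with 9.69 in VAD, against 9.67 in VAS, and 10.19 in BMS, against 10.17 in CTR. In both genes the treated array differed from its own control by 0.16 at most, and the experiments were at least 0.48 apart. Over all members, BMS and CTR were both above VAD and VAS in 17 of 56 (30.4%), against 21.2% of all genes, and both below in 5 of 56 (8.93%), against 19.8%. Cell marker lists were split by experiment too, in either direction. The 9 pericyte and vascular muscle markers had mean levels of 8.96 in BMS and 9.17 in CTR, against 8.77 in VAD and 8.75 in VAS. The lymphocyte and granulocyte and the macrophage lists went the other way, lower in BMS and CTR than in VAD and VAS. The 9 lymphocyte and granulocyte markers had mean levels of 5.91 in BMS and 5.90 in CTR, against 6.75 in VAD and 6.75 in VAS. Their median in CTR against VAS was -0.43, with 4 of 9 at least 1.5-fold lower and 1 of 9, Cd3e (0.36), above 0. S100a9, a neutrophil protein (-2.74), and Ptprc, the common leukocyte antigen (-1.50), were among the lower ones, while Cd79a (-0.06) and Ms4a1 (-0.02) were nearly level. The 7 macrophage markers had 6.03 in BMS and 6.08 in CTR, against 6.32 in VAD and 6.47 in VAS. The 7 alveolar epithelial markers had 6.27 in BMS and 5.98 in CTR, against 6.37 in VAD and 6.95 in VAS. VAS was thus highest and CTR lowest, with VAD and BMS close, which is no clear split by experiment. The 6 markers of airway epithelium lay between 5.24 and 5.30 on all arrays. The part of these cells in the result was not tested.

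The Pde4 family, the target of roflumilast, has 4 genes. Pde4d, linked to control of the beta-adrenergic signal in airway muscle, had 8.74 in BMS, against 9.21 in CTR, and 9.17 in VAD, against 9.03 in VAS. BMS was the lowest array, by -0.46 against CTR and -0.29 against VAS. Pde4c was lower in both experiments, with 6.46 in VAD, against 6.83 in VAS, and 6.09 in BMS, against 6.56 in CTR. The differences were -0.37 and -0.48, and with the controls exchanged they were -0.11 for VAD against CTR and -0.74 for BMS against VAS. Pde4a and Pde4b differed by 0.09 and 0.07 in VAD against VAS and by -0.25 and -0.07 in BMS against CTR.

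Of the phosphodiesterases that hydrolyse both nucleotides, Pde10a differed most. It had 7.18 in BMS, against 8.20 in CTR, and 7.12 in VAD, against 6.61 in VAS. The value in BMS was 2.03-fold lower than in CTR, and 0.259% of all genes were at least as much lower. CTR alone was high: BMS was 0.57 above VAS, so the direction turns with the control, and CTR stood 3.01-fold above VAS, a difference that 0.0604% of all genes matched or exceeded. Pericyte and vascular muscle markers stood beside it, with a median of 0.34 in CTR against VAS and 9 of 9 above 0, and of -0.25 in BMS against CTR with 1 of 9 above 0. Cspg4, the gene of the excluded reporter, was 0.36 higher in CTR than in VAS, and differed by -0.09 in BMS against CTR. Their part in the result was not tested.

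The calcium and calmodulin-stimulated Pde1 genes and Pde3a, the cGMP-inhibited enzyme of smooth muscle, differed by less than 1.3-fold between treated and control arrays. Pde1a had 9.10 in VAD, against 8.98 in VAS, and 9.19 in BMS, against 9.49 in CTR. Pde1b had 8.30 in VAD, against 8.24 in VAS, and 7.87 in BMS, against 8.24 in CTR, so BMS alone was low. Pde3a had 8.64 in VAD, against 8.76 in VAS, and 8.60 in BMS, against 8.83 in CTR. Pde3b was 0.35 higher in VAD than in VAS, Pde2a differed by 0.01 in VAD against VAS, 0.04 in BMS against CTR and -0.18 in CTR against VAS, and Pde11a and Pde1c lay below the median. Of the 5 remaining names, Pde6d, a carrier of prenylated proteins, had 9.14 in VAD, against 9.26 in VAS, and was 0.39 higher in BMS than in CTR, and Pde6g, an inhibitory subunit of photoreceptors, differed by -0.56 in BMS against CTR at levels below the median. Pde4dip, the scaffold myomegalin, had 7.02 in VAD, against 6.80 in VAS, and 6.68 in BMS, against 6.57 in CTR. Pde12, which degrades oligoadenylates, had 7.79 in VAD, against 7.84 in VAS, and 7.83 in BMS, against 7.78 in CTR, and Pde6h differed by -0.12 and -0.27. These 5 match the naming rule and are not known as catalytic subunits that hydrolyse cAMP or cGMP.

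**Figure D2:**
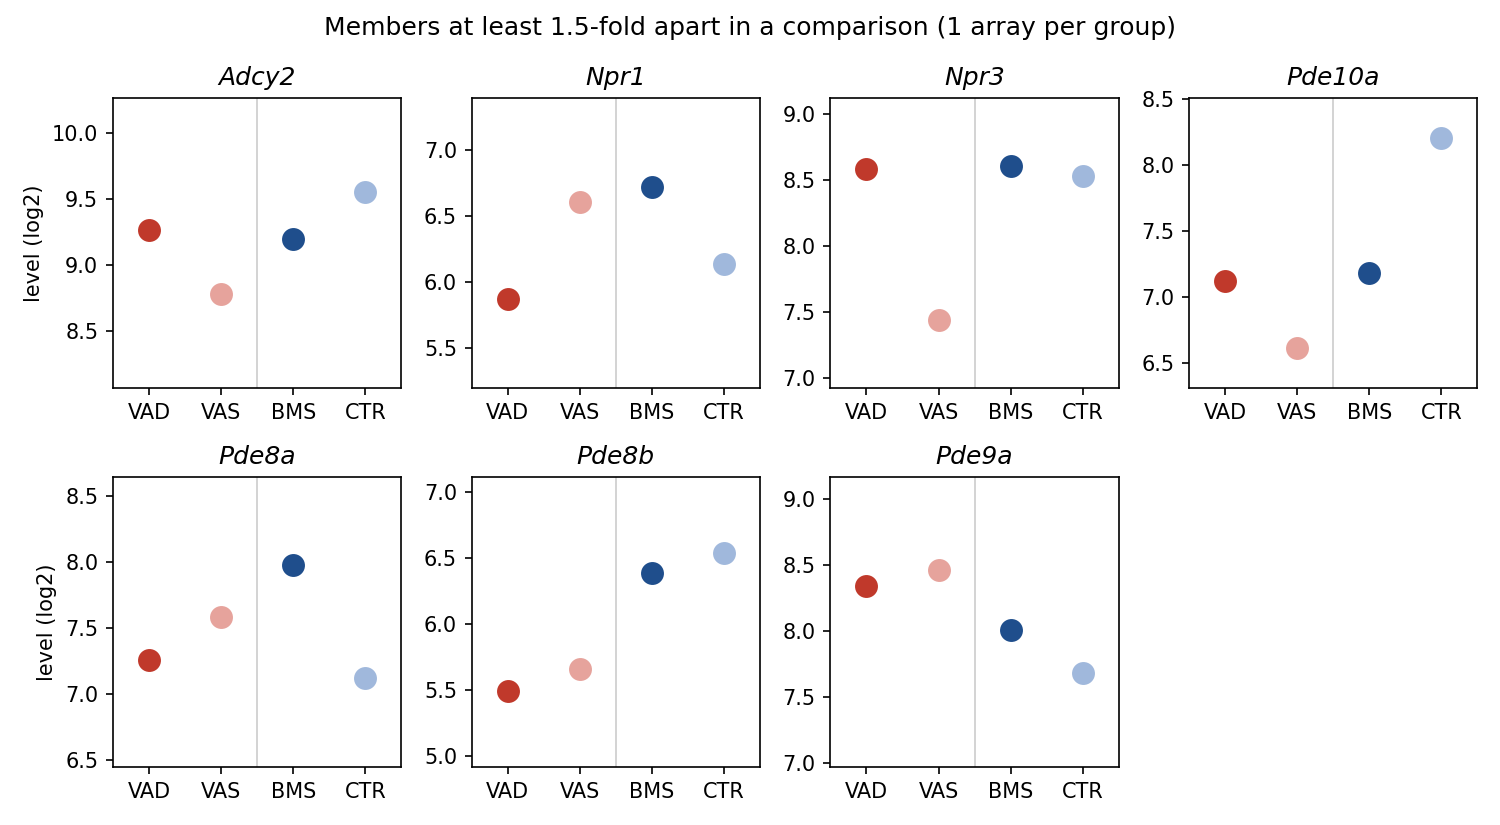
Each panel shows 1 of the 7 members at least 1.5-fold apart in VAD against VAS, BMS against CTR or CTR against VAS, with 1 point per array and the level in log2 units on an axis 2.2 units high. Npr3 has 1 low array, VAS, Pde10a 1 high array, CTR, and Pde8b and Pde9a separate the antagonist experiment from the diet experiment.

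The last comparison asked what both interventions shared. VAD against VAS and BMS against CTR use different arrays. Of the 56 members 10 were higher in both (17.9%), against 23.6% of all genes, and 16 were lower in both (28.6%), against 26.0%. Same-way differences were ranked by the smaller of the 2. The largest upward were those of Prkar1a (smaller difference 0.32), Pde4dip (0.11), Prkacb (0.08), Npr3 (0.07) and Prkar2a (0.07). For Npr3, low in VAS alone, 35.5% of all genes were at least as much higher in BMS against CTR. The largest downward were those of Pde4c (-0.37), Gucy1b1 (-0.20), Pde5a (-0.18), Adcy8 (-0.16) and Gucy1a1 (-0.16). In limma's fit of VAD and BMS against VAS and CTR, with the experiment as a block and Benjamini-Hochberg adjustment over all 23185 genes, 0 members and 0 genes (0.0%) passed an adjusted p of 0.05. At an unadjusted p under 0.05 there were 2 of 56 members, Pde4c and Prkar1a, and 4.05% of all genes. The mean differences were -0.42 (SE 0.12) for Pde4c and 0.34 (SE 0.11) for Prkar1a, and both had an adjusted p of 0.98 in limma. Each went in the same direction in 2 of 2 experiments. A low p in this fit favours such agreement, because its residual is the gap between the 2 differences, so the agreement adds no support. The SE reflects that gap, moderated over all genes, and not a spread between mice. This fit treats a diet and a drug as repeats of 1 condition and has 1 residual degree of freedom, so its 0 calls do not show that the genes were alike.

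**Figure D3:**
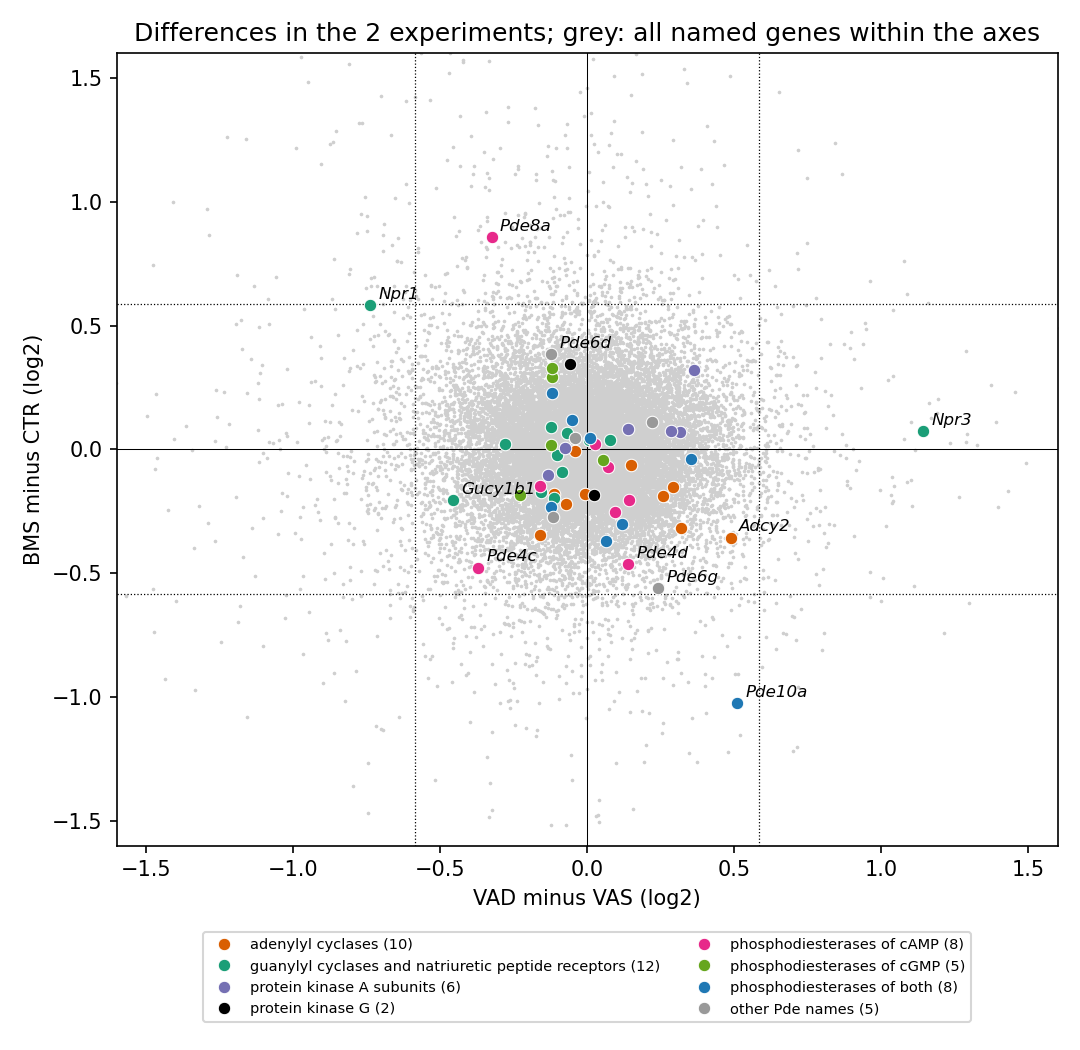
Each coloured point is 1 of the 56 members, by class, with VAD minus VAS on the horizontal and BMS minus CTR on the vertical axis, both in log2 units. Grey points are all named genes within the axes and dotted lines mark 1.5-fold. Most members lie within the grey cloud. Npr3 stands to the right, Pde8a and Npr1 to the upper left and Pde10a to the lower right.

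**Figure D4:**
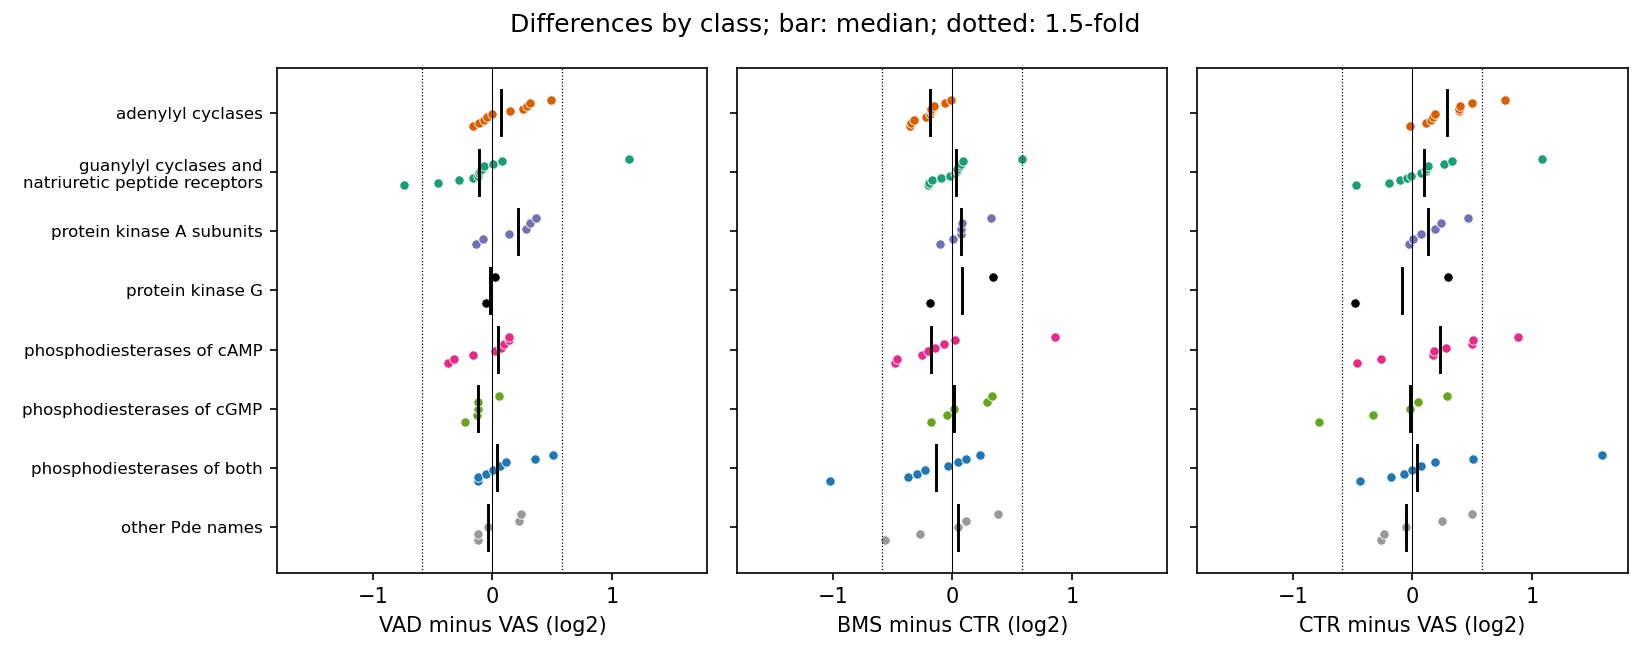
Each point is the difference of 1 member in log2 units for VAD minus VAS, BMS minus CTR and CTR minus VAS, in rows by class, with a bar at the class median and dotted lines at 1.5-fold. All 10 adenylyl cyclases lie below 0 in BMS minus CTR (median -0.18), as do 50.8% of all genes and all 15 contractile markers. In CTR minus VAS 9 of 10 lie above 0 (median 0.29), as do 49.9% of all genes. These 2 comparisons share CTR.

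Genes around the pathway were read from lists of receptors, G proteins, anchoring proteins, inhibitors, effectors and targets, 87 of which were measured. In VAD against VAS 0 of the 87 were at least 1.5-fold higher, against 1.29% of all genes, and 3 (3.45%) were lower, against 2.14%. These were the Gi-coupled receptors Chrm2 (-1.25) and Ptger3 (-0.78), which restrain cAMP synthesis, and Ppargc1a (-0.75), a coactivator induced by cAMP. In BMS against CTR 3 (3.45%) were higher, against 2.18%, namely Ptger3 (1.32), Adcyap1r1 (1.19), a Gs-coupled peptide receptor, and Calcrl (0.79), and 2 (2.30%) were lower, against 1.74%, namely Chrm2 (-0.78) and Gnal (-0.71), a stimulatory G protein subunit. Chrm2, the M2 receptor that opposes cyclase in airway muscle, had 9.37 in VAD, against 10.62 in VAS, and 9.54 in BMS, against 10.32 in CTR, so both treated arrays were below both controls. In CTR against VAS 2 (2.30%) were higher, against 2.16% of all genes, namely Abcc5 (0.69), an exporter of cyclic nucleotides, and Guca2a (0.68), the peptide guanylin, and 3 (3.45%) were lower, against 4.33%, namely Ppargc1a (-0.89), Popdc3 (-0.77), a cAMP-binding membrane protein, and Ptger3 (-0.59). The median over the 87 was 0.04 in VAD against VAS and -0.06 in BMS against CTR. In limma 0 of the 87 passed, with adjusted p of 0.98 or more.

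The 14 measured A-kinase anchoring proteins, which hold protein kinase A near its substrates, had medians of 0.02 in VAD against VAS and -0.19 in BMS against CTR, with none 1.5-fold apart. The 3 inhibitor peptides of the kinase, Pkia, Pkib and Pkig, had medians of 0.04 and 0.10. Substrates of relaxation, 9 measured, had medians of -0.01 and -0.12, and CREB family genes and coactivators, 10 measured, 0.03 and -0.15. The 9 cAMP response genes had medians of 0.01 and -0.06, with Ppargc1a the one past 1.5-fold. The 8 Gs-coupled receptors measured of 12 listed had medians of 0.10 and 0.24, the 4 Gi-coupled ones of 7 listed -0.60 and 0.04, and the 7 G protein alpha subunits -0.02 and 0.10. The 14 other cyclic nucleotide effectors had medians of 0.06 and -0.01, the 8 natriuretic peptide and nitric oxide synthase genes 0.04 and 0.04, and the 2 exporters, Abcc4 and Abcc5, 0.28 and -0.33.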

How the data were processed

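RNA of sorted cells was measured on 4 Affymetrix expression arrays, 1 per group, each a pool of 3 mice. The deposited values are log2 levels that the authors made with RMA (background correction, normalization between arrays, summary of probes) in affy 1.36.1 and R 2.15.1, per the submitters' processing notes. The sources used here do not say which arrays were normalized together. Such normalization hides a shift shared by most genes. Scanner intensities were not used, so it is not known which probe sets were above background. Precision is limited by having 4 arrays. The table holds 25206 probe sets, of which 23185 had 1 symbol, 0 several and 2021 are unnamed here. All 56 member symbols equal those of the RefSeq table (GRCm38.p6). A build for the arrays is not given, so no gene coordinates are used other than those of the RefSeq promoter windows.

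Differences of log2 values were taken with no filter on low values, and members and genes past 1.5-fold were counted. With 1 array a group these differences have no test. The joint test was limma (lmFit, eBayes, 2-sided), also run on simulated data. The simulated arrays had no gap between the experiments and the same changes in VAD and BMS. Since the real arrays differ in this, that run does not vouch for the fit here. Named are members past 1.5-fold in any of 3 comparisons and up to 3 members per class by mean level. Also named are the 5 largest same-way differences in each direction, ranked by the smaller of both differences. Others are mentioned after their values were seen. Of the pathway lists, genes past 1.5-fold are named, and of the marker lists a few genes, chosen after their values were seen. The members and lists were chosen with earlier results of these data known. Alternatives were thresholds of 1.3-fold and 2-fold, filters on mean level at the median and the 75th percentile, quantile normalization again, cyclic loess, centring on all genes or on the contractile list, other controls, other limma settings and leaving out each array. The fits ran in limma 3.58.1 under R 4.3.3, and the rest in Python 3.11.15 with pandas 2.3.3, numpy 2.4.6 and matplotlib 3.10.9.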

Additional observations from a re-analysis of the deposited data

Results flagged for a closer look

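In 5 members the differences of both experiments had opposite signs and were each at least 1.2-fold, a threshold chosen after the values were seen. The same held for 3.92% of all 23185 genes, against 8.93% of the 56 members. The difference between the experiments was not tested, since each group is 1 array. Pde10a differed by 0.51 in VAD minus VAS and -1.02 in BMS minus CTR, with CTR the highest array and VAS the lowest. Npr1 differed by -0.74 and 0.58, Pde8a by -0.33 and 0.86, Adcy2 by 0.49 and -0.36, and Adcy10, the bicarbonate-sensitive cyclase, by 0.32 and -0.32 at levels from 3.16 to 3.60. With the controls exchanged, VAD against CTR and BMS against VAS gave -1.08 and 0.57 for Pde10a and -0.28 and 0.42 for Adcy2. Both signs thus turned in these genes. The values were 0.14 and 0.39 for Pde8a, -0.27 and 0.11 for Npr1, and 0.13 and -0.13 for Adcy10.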

How the results depend on the processing

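The joint limma fit pairs each treated array with its own control through the experiment as a block. Counts of members past 1.5-fold were 2 (VAD against VAS), 2 (BMS against CTR) and 5 (CTR against VAS). Against the mean of both controls, a setting of the labelled comparisons only, the counts kept within 1.5 times of these. The counts of all comparisons did so under quantile normalization again, cyclic loess, both centrings and the filter at the median level. At 2-fold they were 1, 1 and 2, and at 1.3-fold 5, 7 and 18. With members at or above the 75th percentile of level they were 1, 0 and 3. Against the other experiment's control the count was 4 for VAD (1 higher, 3 lower) and 3 for BMS. With the contractile list as the centre, the medians moved to -0.20 for VAD against VAS and 0.11 for BMS against CTR. The median for BMS was -0.16 at or above the 75th percentile and 0.049 against VAS, where it changed sign. None of the 4 called differences of the labelled comparisons reached 1.5-fold the same way against the other control (0 shared in VAD, 0 in BMS): Npr3 was 0.05, Npr1 -0.27 and Pde8a 0.39, and Pde10a in BMS reversed to 0.57, CTR being 1.59 above VAS. In limma 0 members passed under each of the 11 alternatives, leaving out each array included (0 to 0), with 0 to 4 members at an unadjusted p under 0.05. The alternatives without 1 array and the one without the block drop the term for the experiment. With 1 array per group, no depth or detection measure was at hand.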
